A study of Mus musculus with 32 samples.

Results

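In mouse embryonic stem cells 6 genes, Aass, Zfp951, H2-Eb1, Ido2, Smtnl1 and Mobp, were followed over serial passages with and without the nuclear receptor agonist T0901317. They were chosen by name for a strong loss of transcript in treated cells, so their differences between the arms are given below as a description, with no test. All 6 of the 6 were among the 24890 gene symbols of the table, and all 6 passed the filter on low counts, which left 15036 genes. The treated arm, NrESC, was wild-type E14 cells grown with 10 µM T0901317, which activates the liver X receptors (LXR), while the comparison arm, ESC, was the same wild-type E14 line without it. Cells of both arms grew on gelatin in serum medium that held LIF and inhibitors of GSK3 (CHIR99021) and of MEK (PD0325901). Polyadenylated RNA was sequenced at passages 0, 2, 4, 6, 8, 10, 12 and 14 of each arm, with 2 libraries for each of the 16 groups. Every NrESC library was labelled as treated, passage 0 included, and the length of treatment at passage 0 was not given in the sources used here. E14 is a single line, and separate cultures are not stated for the pair of libraries in a group, so a p-value here reflects only how far these samples spread.

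The 6 genes belong to different pathways. Aass encodes the mitochondrial enzyme that carries out the first steps of lysine breakdown through saccharopine, and Ido2 encodes a relative of Ido1, the enzyme that opens the tryptophan ring at the start of the kynurenine route. H2-Eb1 encodes the beta chain of an MHC class II molecule, which presents peptides to helper T cells and is normally made by antigen-presenting cells. Smtnl1 encodes a smoothelin-like protein of muscle that acts on myosin phosphatase, and Mobp encodes a structural protein of myelin in the central nervous system. Zfp951 encodes a zinc finger protein. LXRs are nuclear receptors that are activated by oxysterols and switch on genes of sterol export.

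Promoter sequence is shown for the 3 genes whose windows share a run of letters. RefSeq (build GRCm38.p6) gave a window from 250 bases before to 50 bases after the transcription start for 5 of the 6 genes, all but Ido2. The windows below run 5′ to 3′ on the gene's strand, and capitals mark CCAAT on either strand, the letters bound by the factor NF-Y, extended to 8 letters where they read CCAATCAG. The windows are chr6:23132937-23133236 on the minus strand for Aass, chr5:104859978-104860277 on the minus strand for Zfp951 (1 of its 2 entries), and chr17:34305617-34305916 on the plus strand for H2-Eb1.
Aass: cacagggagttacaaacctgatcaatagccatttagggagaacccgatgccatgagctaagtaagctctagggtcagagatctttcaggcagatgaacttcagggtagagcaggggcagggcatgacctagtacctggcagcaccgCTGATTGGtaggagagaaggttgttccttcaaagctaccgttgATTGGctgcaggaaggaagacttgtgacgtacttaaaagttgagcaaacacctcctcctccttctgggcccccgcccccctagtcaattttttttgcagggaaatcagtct
Zfp951: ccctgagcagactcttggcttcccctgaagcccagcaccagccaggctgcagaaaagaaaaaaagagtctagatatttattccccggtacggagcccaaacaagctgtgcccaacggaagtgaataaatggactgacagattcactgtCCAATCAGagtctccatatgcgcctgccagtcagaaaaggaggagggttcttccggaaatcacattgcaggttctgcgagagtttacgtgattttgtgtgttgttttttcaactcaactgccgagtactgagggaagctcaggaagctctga
H2-Eb1: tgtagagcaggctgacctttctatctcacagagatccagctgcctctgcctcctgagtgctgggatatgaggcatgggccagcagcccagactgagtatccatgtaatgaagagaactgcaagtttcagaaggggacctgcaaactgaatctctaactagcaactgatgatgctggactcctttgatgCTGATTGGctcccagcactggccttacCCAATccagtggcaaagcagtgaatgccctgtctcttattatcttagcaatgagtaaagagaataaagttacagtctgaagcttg
The 8 letters CCAATCAG, chosen after the windows had been read, lie 104 bases upstream of the start in Aass and 62 in H2-Eb1. In Zfp951 they lie 102 bases upstream in the entry shown and 61 in its other entry. They occur on either strand in 4.1% of all 32851 windows of the same length, and neither the Smtnl1 nor the Mobp window holds them. The 5 letters CCAAT, which the 8 contain, occur in the same 3 of 5 windows and in 37.4% of all. The nuclear receptor motif AGGTCA occurs in 2 of the 5, Aass and H2-Eb1, and in 16.3% of all. A direct repeat of AGGTCA with 4 bases between, the spacing that LXR favours, occurs in 0 of the 5 and in 0.0152% of all. The H2-Eb1 window holds 0 CpG dinucleotides, Aass and Mobp hold 5 each, Zfp951 8 and Smtnl1 11, against a median of 7 over all windows.

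Levels are in CPM, counts scaled to the library total after TMM correction. The libraries held 25062538 to 50463483 counts in NrESC and 24989651 to 45818061 in ESC. The LXR targets Abca1 and Abcg1, which export sterols, checked the labels: Abca1 lay between 342 and 460 CPM in the 16 NrESC libraries and between 34.8 and 61.7 CPM in the 16 ESC libraries, and Abcg1 between 95.7 and 208 CPM in NrESC and between 4.29 and 9.84 CPM in ESC. All 8 pluripotency markers examined, among them Pou5f1, Nanog and Klf4, were at 178 CPM or more in every library. The summed level of 10 immune markers was 8.49 to 10.6 CPM over the NrESC groups and 6.72 to 10.5 CPM over the ESC groups, 4 of the 10 passed the filter, and none was at 0 in every library. The myeloid markers Lyz2, Csf1r, Ptprc and Adgre1 had 2, 3, 5 and 1 counts in all in NrESC and 63, 42, 12 and 7 in ESC, of which 62, 23, 12 and 7 were in replicate 2 of ESC at passage 2. For 9 fibroblast markers it was 32.5 to 60.5 CPM in NrESC and 29.8 to 47.3 CPM in ESC, with 1 of the 9 at 0 throughout, and the part of either cell type in the results was not tested. The libraries of NrESC at passage 8 stood apart, at -18.9 and -16.5 on the second principal component of the 500 most variable genes (14.7% of the variance), against -9.3 to 19.5 for the other NrESC libraries and -7.5 to 15.9 for ESC.

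The genes parted from their untreated level at different passages, as the plot of levels by library shows. The passage of loss was taken as the first from which the NrESC mean stayed under 50% of the ESC mean at that and every later passage. It was passage 0 for Mobp, passage 2 for Aass, H2-Eb1 and Smtnl1, passage 4 for Zfp951 and passage 6 for Ido2. This order depends on the definition: counted against NrESC at passage 0, Aass, Zfp951, H2-Eb1 and Ido2 all crossed 50% at passage 2, and Smtnl1 and Mobp did not stay below it. At under 25% of ESC it was passage 4 for Aass, passage 6 for Zfp951, H2-Eb1 and Smtnl1 and passage 8 for Ido2, with none for Mobp. Under 50% of ESC stood 1 of the 6 at passage 0, against 2.58% of all genes tested, 4 at passage 2 (4.24%) and 5 at passage 4 (5.39%). From passage 6 to passage 14 all 6 did at each passage, against 5.01%, 7.47%, 4.56%, 3.98% and 4.95% of all genes at passages 6, 8, 10, 12 and 14. NrESC was below ESC with no overlap of libraries for 3, 6, 5, 6, 6, 6, 6 and 6 of the genes at passages 0 to 14 in order, against 29%, 35.2%, 37%, 36.5%, 41.8%, 39.1%, 36.3% and 35.5% of all genes. Since the genes were chosen on these differences, nothing is read from those shares. These are bulk samples, in which fewer cells making a transcript and less transcript per cell cannot be told apart.

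**Figure D1:**
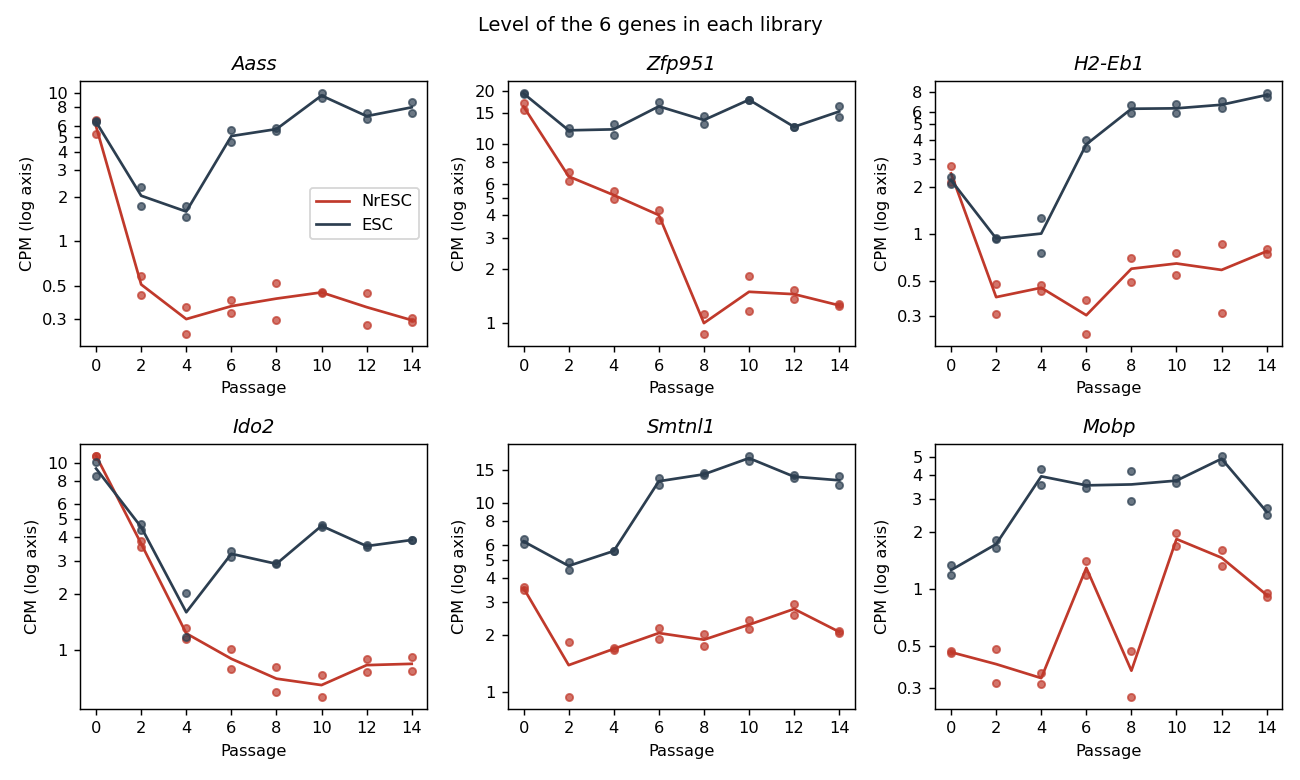
Level of each of the 6 genes (CPM, log axis) against passage. Points are single libraries, 2 per arm and passage, and lines join their means, with NrESC in red and ESC in dark blue. Aass in NrESC is at 0.588 CPM or less from passage 2 on, and Mobp in NrESC swings between 0.34 and 1.84 CPM.

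Aass was lost by passage 2 and stayed low. Its 2 NrESC libraries had 5.26 and 6.57 CPM at passage 0, 0.437 and 0.588 at 2, 0.238 and 0.362 at 4, 0.403 and 0.330 at 6, 0.298 and 0.526 at 8, 0.457 and 0.450 at 10, 0.448 and 0.274 at 12, and 0.285 and 0.305 at 14. The ESC libraries had 6.30 and 6.39 CPM at passage 0, 1.73 and 2.32 at 2, 1.45 and 1.72 at 4, 5.56 and 4.64 at 6, 5.54 and 5.82 at 8, 9.92 and 9.17 at 10, 7.29 and 6.60 at 12, and 8.67 and 7.24 at 14. The arms overlapped at passage 0 and at no later passage. ESC was itself low at passages 2 and 4, at 31.9% and 25% of its own passage 0 level, and stood above that level from passage 10 on, while NrESC was at 8.66% of its passage 0 level at passage 2 and at 4.99% at passage 14. The step from passage 0 to passage 2 was -3.58 on the log2 scale in NrESC (SE 0.21) and -1.65 in ESC (SE 0.16). Later steps in NrESC lay between -0.67 and 0.25, with SEs of 0.37 to 0.44, since single NrESC libraries held as few as 6 counts. NrESC was at 93.3% of the ESC level at passage 0 and at 3.71% at passage 14, the lowest share of any of the 6 genes at any passage.

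Zfp951 was lost more slowly, with its largest steps down in NrESC before passage 2 and before passage 8. In NrESC it had 15.6 and 17.0 CPM at passage 0, 7.02 and 6.22 at 2, 5.48 and 4.93 at 4, 4.28 and 3.76 at 6, 0.867 and 1.13 at 8, 1.83 and 1.16 at 10, 1.37 and 1.53 at 12, and 1.24 and 1.27 at 14. In ESC it had 19.2 and 19.4 CPM at passage 0, 11.6 and 12.4 at 2, 11.3 and 13 at 4, 15.5 and 17.2 at 6, 14.4 and 13 at 8, 17.8 and 17.8 at 10, 12.5 and 12.6 at 12, and 16.4 and 14.2 at 14. Every NrESC library was below both ESC libraries at each of the 8 passages, and its mean stood at 84.4% of ESC at passage 0, 24.6% at passage 6 and 7.30% at passage 8. On the log2 scale the NrESC steps were -1.29 (SE 0.10) between passages 0 and 2, -0.37 (SE 0.12) and -0.35 (SE 0.13) over the next intervals, and -2.01 (SE 0.18) between passages 6 and 8. ESC stepped by -0.69 (SE 0.09) between passages 0 and 2 and by 0.43 (SE 0.092) between passages 4 and 6, so that the fold change moved at each of these intervals. The step before passage 8 led into the group that stood apart, and the next step was 0.60 (SE 0.22). At passages 10, 12 and 14 NrESC was at 8.40%, 11.5% and 8.21% of ESC. The ESC level stayed between 62.0% and 92.1% of its passage 0 value.

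H2-Eb1 combined a low level in NrESC with a later high level in ESC. In NrESC it had 2.73 and 2.14 CPM at passage 0, 0.483 and 0.311 at 2, 0.437 and 0.474 at 4, 0.378 and 0.231 at 6, 0.705 and 0.499 at 8, 0.753 and 0.547 at 10, 0.870 and 0.313 at 12, and 0.803 and 0.752 at 14. In ESC it had 2.31 and 2.10 CPM at passage 0, 0.949 and 0.928 at 2, 0.756 and 1.26 at 4, 3.95 and 3.51 at 6, 5.93 and 6.64 at 8, 6.78 and 5.87 at 10, 6.31 and 7.02 at 12, and 7.91 and 7.48 at 14. The arms overlapped at passage 0 and not afterwards. The ESC groups of passages 6 to 14 held 267 to 478 counts of H2-Eb1 each, and 2 to 5 of Lyz2, Csf1r, Ptprc and Adgre1 together. Replicate 2 of ESC at passage 2, where those 4 markers were highest, had 0.928 CPM of H2-Eb1 against 0.949 in replicate 1. The immune markers Spi1, Cd3e, Cd79a and Itgam had 1704, 1489, 780 and 452 counts over all ESC libraries. Over all NrESC libraries they had 2140, 1704, 1195 and 395. In the mean of 8 passages their log2 fold changes, NrESC over ESC, were 0.20, 0.08, 0.43 and -0.34. Whether immune cells contributed to H2-Eb1 was not tested. H2-Eb1 was lower in both arms at passages 2 and 4 than at passage 0. NrESC stood at 16.3% of its passage 0 level at passage 2 and ESC at 42.6%. Between passages 4 and 6 the ESC level stepped up by 1.86 on the log2 scale (SE 0.22), while the NrESC step was -0.54 (SE 0.46), and the share of ESC in NrESC went from 45.2% at passage 4 to 8.16% at passage 6. At passage 14 NrESC stood at 31.9% of its own passage 0 level and ESC at 349%. The passage of loss of H2-Eb1 was 6 without replicate 2 of ESC at passage 4 and 4 without replicate 2 of NrESC at passage 2.

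Ido2 was lower in both arms over the first passages, and NrESC stood under 50% of ESC only from passage 6 on. In NrESC it had 10.9 and 10.9 CPM at passage 0, 3.84 and 3.56 at 2, 1.15 and 1.31 at 4, 1.01 and 0.791 at 6, 0.596 and 0.815 at 8, 0.565 and 0.739 at 10, 0.765 and 0.901 at 12, and 0.777 and 0.916 at 14. In ESC it had 10.1 and 8.53 CPM at passage 0, 4.38 and 4.70 at 2, 2.02 and 1.17 at 4, 3.14 and 3.4 at 6, 2.87 and 2.91 at 8, 4.56 and 4.66 at 10, 3.65 and 3.54 at 12, and 3.89 and 3.86 at 14. Both NrESC libraries were above both ESC libraries at passage 0, the arms overlapped at passage 4, and NrESC was below ESC without overlap at the other passages. The steps from passage 0 to 2 and from 2 to 4 were -1.55 and -1.58 in NrESC and -1.05 and -1.52 in ESC on the log2 scale, with SEs of 0.12 and 0.18 in NrESC and 0.12 and 0.17 in ESC. From passage 4 to 6 the NrESC step was -0.45 (SE 0.25) and the ESC step 1.06 (SE 0.18). At passage 4 the log2 fold change, NrESC over ESC, was -0.34 (SE 0.22), and without replicate 1 of ESC at that passage it was 0.09. At passage 14 Ido2 was at 7.79% of its passage 0 level in NrESC and at 41.5% in ESC, and it was the only one of the 6 under 50% in ESC.

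Smtnl1 was lower in NrESC from passage 0 on, and the gap grew both with a lower NrESC level at passage 2 and with a higher ESC level at passage 6. In NrESC it had 3.61 and 3.48 CPM at passage 0, 0.943 and 1.83 at 2, 1.71 and 1.67 at 4, 2.19 and 1.91 at 6, 1.76 and 2.02 at 8, 2.39 and 2.15 at 10, 2.93 and 2.57 at 12, and 2.05 and 2.11 at 14. In ESC it had 6.07 and 6.46 CPM at passage 0, 4.89 and 4.41 at 2, 5.57 and 5.58 at 4, 13.6 and 12.5 at 6, 14.0 and 14.4 at 8, 16.8 and 17.8 at 10, 14.1 and 13.5 at 12, and 12.5 and 13.9 at 14. No NrESC library reached an ESC library of its passage. NrESC moved between 39.1% and 77.5% of its passage 0 level after passage 0, and ended at 58.7%, while ESC ended at 211%. The ESC step between passages 4 and 6 was 1.22 on the log2 scale (SE 0.11), against 0.29 in NrESC (SE 0.19).

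Mobp was low in NrESC at every passage but did not go down over the passages there, although it was listed as lost in treated cells. In NrESC it had 0.472 and 0.46 CPM at passage 0, 0.322 and 0.484 at 2, 0.318 and 0.362 at 4, 1.41 and 1.19 at 6, 0.271 and 0.473 at 8, 1.70 and 1.99 at 10, 1.61 and 1.33 at 12, and 0.907 and 0.963 at 14. In ESC it had 1.19 and 1.34 CPM at passage 0, 1.82 and 1.65 at 2, 3.56 and 4.35 at 4, 3.65 and 3.44 at 6, 4.24 and 2.93 at 8, 3.63 and 3.88 at 10, 5.08 and 4.72 at 12, and 2.46 and 2.68 at 14. NrESC was below ESC without overlap at each of the 8 passages, at 36.8% of ESC already at passage 0. The share then moved without a direction, from 8.60% at passage 4 to 49.2% at passage 10. Steps of 1.92, -1.80 and 2.29 on the log2 scale followed each other in NrESC from passage 4 to passage 10 (SE 0.31, 0.29 and 0.27), so that passage 8 was a dip between 2 high passages. ESC showed no such dip, with steps of 0.39 or less in size over passages 4 to 12. Because the share at passage 10 lay so near 50%, the passage of loss of Mobp was 12 without replicate 2 of ESC or without replicate 1 of NrESC at that passage.

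**Figure D2:**
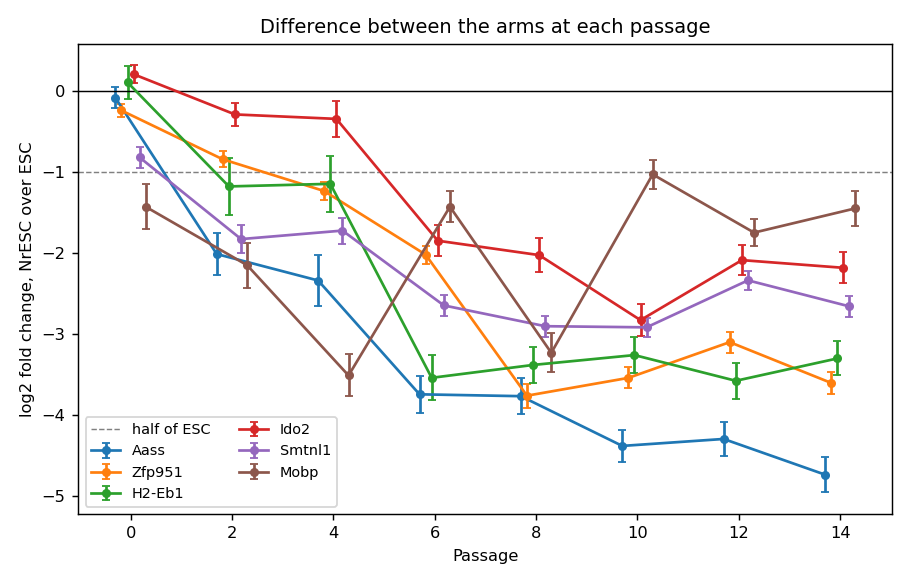
Log2 fold change of each gene, NrESC over ESC, at the 8 passages, with SEs from the model of all libraries as bars and a dashed line at 50% of ESC. Aass reaches -4.74 at passage 14, Ido2 starts at 0.21, and Mobp has no course in 1 direction.

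Averaged over the 8 passages, the log2 fold change of NrESC over ESC was -3.17 for Aass (SE 0.082), -2.41 for H2-Eb1 (SE 0.097), -2.29 for Zfp951 (SE 0.043), -2.23 for Smtnl1 (SE 0.048), -2.0 for Mobp (SE 0.082) and -1.42 for Ido2 (SE 0.066). From the lowest upward, these fold changes ranked 6, 47, 62, 67, 105 and 280 of the 15036 genes. Without passage 8 the value for Zfp951 was -2.08 and that for Mobp -1.82. Per length of transcript, as TPM (the authors' deposited values, corrected for length) averaged over 8 passages, Smtnl1 had 2.37 ± 0.701 TPM in NrESC and 12 ± 5.33 TPM in ESC (SD over passages). Zfp951 had 3.04 ± 3.18 TPM in NrESC and 9.72 ± 1.67 TPM in ESC. H2-Eb1 had 0.882 ± 0.753 TPM in NrESC and 5.1 ± 3.26 TPM in ESC. The other 3 were lower in ESC: Aass at 0.499 ± 0.89 TPM in NrESC and 2.71 ± 1.34 TPM in ESC, Mobp at 0.719 ± 0.52 TPM in NrESC and 2.68 ± 1.04 TPM in ESC, and Ido2 at 1.43 ± 2.01 TPM in NrESC and 2.49 ± 1.27 TPM in ESC. The last 3 ESC levels lay within 1 SD of each other, so their order is not set by these data.

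Within their own arm, the genes changed from passage 0 to passage 14 in different ways. In NrESC the log2 change was -4.33 for Aass (SE 0.22), -3.70 for Zfp951 (SE 0.13), -3.67 for Ido2 (SE 0.16), -1.62 for H2-Eb1 (SE 0.24), -0.76 for Smtnl1 (SE 0.15) and 1.00 for Mobp (SE 0.29). In ESC it was 0.33 for Aass (SE 0.13), -0.33 for Zfp951 (SE 0.09), -1.28 for Ido2 (SE 0.13), 1.79 for H2-Eb1 (SE 0.18), 1.08 for Smtnl1 (SE 0.11) and 1.02 for Mobp (SE 0.21). For Aass, Zfp951 and Ido2 the larger change was in NrESC, for Smtnl1 it was in ESC, and for H2-Eb1 and Mobp the sizes in the arms differed by less than their SEs. At passage 14, 4 of the 6 were under 50% of their own passage 0 level in NrESC, against 2.2% of all tested genes, and 1 of the 6, Ido2, in ESC, against 1.14%.

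**Figure D3:**
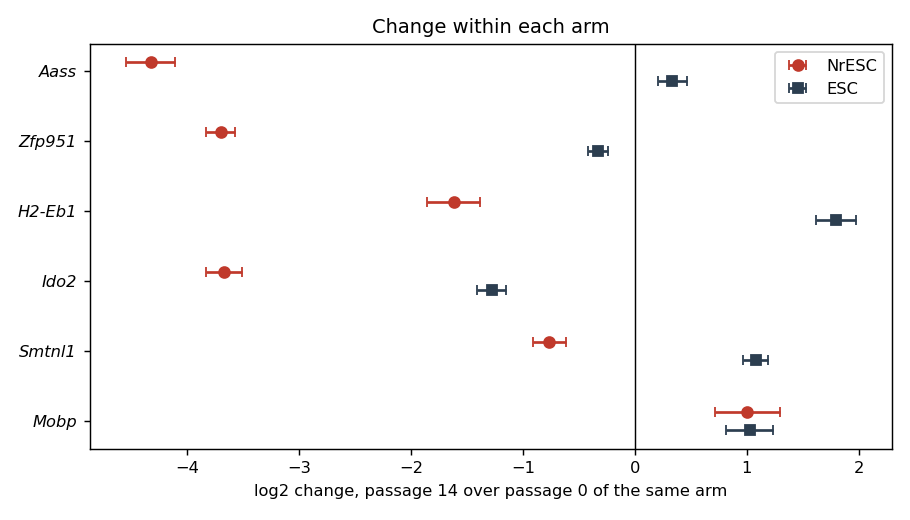
Log2 change of each gene between passage 0 and passage 14 of the same arm, with NrESC as red circles, ESC as dark blue squares and SEs as bars. Aass, Zfp951 and Ido2 lie far below 0 in NrESC, Smtnl1 and H2-Eb1 lie above 0 in ESC, and both points of Mobp lie near 1.

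On the log2 scale the ESC steps between passages 4 and 6 were 1.86 for H2-Eb1, 1.66 for Aass and 1.22 for Smtnl1. They were 1.06 for Ido2, 0.43 for Zfp951 and -0.17 for Mobp. The steps over the same passages in NrESC were -0.54, 0.25, 0.29, -0.45, -0.35 and 1.92 in that order of genes. The share of all genes with such steps was not counted. ESC libraries as a whole moved on the first principal component, from 14.9 and 14.6 at passage 4 to 23.3 and 23.7 at passage 6. Log2 levels were correlated across the 8 passages of an arm, which share their libraries. For Aass and H2-Eb1 Pearson r was 0.86 in NrESC and 0.90 in ESC, and for Aass and Ido2 0.86 in NrESC and 0.50 in ESC. In NrESC passage 0 stood far above the rest, at 5.91 CPM for Aass against 0.512 or less later. H2-Eb1 was at 2.44 CPM there against 0.777 or less, so the NrESC value of r leans on 1 group. For H2-Eb1 and Smtnl1 r was 0.75 in NrESC and 0.95 in ESC, and for Zfp951 and Ido2 it was 0.89 in NrESC and 0.67 in ESC. Zfp951 and Ido2 were also highest at passage 0 in NrESC, at 16.3 and 10.9 CPM against 6.62 and 3.7 or less later. The NrESC values of r for Ido2 with Aass and with Zfp951 may therefore lean on that group too. Mobp went with none of the others to the same degree in NrESC, where r lay between -0.49 with Ido2 and 0.36 with Smtnl1. In ESC its r lay between -0.72 with Ido2 and 0.61 with Smtnl1.

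The genes with the most similar course were found by the Pearson correlation of log2 CPM means over the 16 groups, among the 11957 genes averaging a log2 CPM of 0 or more. Such values share the contrast of the arms as well as the libraries. Nearest to Aass were the neurofilament genes Nefm (r = 0.981) and Nefl (r = 0.965) and the germ cell gene Tex15 (r = 0.96). Zfp951 was nearest to Aspa (r = 0.969), which encodes aspartoacylase, Dmgdh (r = 0.965), an enzyme of choline breakdown, and Xlr3c (r = 0.956). For H2-Eb1 they were Ube2l6 (r = 0.971), an enzyme that conjugates the interferon-induced modifier ISG15, Dppa3 (r = 0.968), known from early embryos and germ cells, and again Nefl (r = 0.959). Smtnl1 was nearest to Tmem40 (r = 0.986), Pramel7 (r = 0.984) and Reep1 (r = 0.972). Ido2 had the weakest neighbours, Gstp3 and Mylpf (both r = 0.945) and Cask (r = 0.944), and Mobp had Washc4 (r = 0.967), Ksr1 (r = 0.961) and Yes1 (r = 0.957). Each of these 17 genes had a lower mean CPM over 8 passages in NrESC than in ESC, for example 7.39 CPM in NrESC and 28.7 CPM in ESC for Nefm and 1.25 CPM in NrESC and 9.64 CPM in ESC for Pramel7.

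The pathways of the 6 genes were examined through 7 lists of other genes, tested in the mean of 8 passages with edgeR's quasi-likelihood test and Benjamini-Hochberg adjustment over all genes. In this comparison 39.8% of all tested genes were lower and 39.1% higher in NrESC, with a median log2 fold change of -0.00144. The plot of the lists shows each tested gene. The shares of genes past the threshold with passage as the unit of replication, which takes the spread between passages as the error, were 27.2% lower and 28.3% higher.

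Lysine breakdown beyond Aass did not follow it. Of 17 tested genes 9 were higher and 5 lower in NrESC, with a median log2 fold change of 0.063. Aldh7a1, which acts on the product downstream of Aass in the saccharopine route, averaged 79.9 ± 5.16 CPM in NrESC and 67.1 ± 2.75 CPM in ESC (SD over 8 passages), which is 0.25 as a log2 fold change (SE 0.015, edgeR adjusted p = 1.09e-18). The smallest p-values of the list belonged to Echs1, an enoyl-CoA hydratase, at 0.54 (SE 0.011), Slc7a1, a cationic amino acid transporter that takes up lysine, at 0.41 (SE 0.009), and Gcdh, glutaryl-CoA dehydrogenase, at 0.29 (SE 0.014), all higher in NrESC at 8 of 8 passages. With passage as the unit 3 genes of the list were lower and 7 higher.

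Of the tryptophan and kynurenine genes 13 were tested, 8 higher and 3 lower in NrESC, with a median log2 fold change of 0.264. Ido1, the relative and chromosomal neighbour of Ido2, was barely detected, with 26 counts in all over 16 NrESC libraries and 47 over 16 ESC libraries, and was not tested. Slc7a5, which imports tryptophan and other large neutral amino acids, was higher in NrESC by 0.84 on the log2 scale (SE 0.0077), and Wars, the tryptophanyl-tRNA synthetase, by 0.26 (SE 0.011). Tiparp, a target of the aryl hydrocarbon receptor that kynurenine can activate, had a log2 fold change of -0.40 (SE 0.018), and each of the 3 passed the edgeR threshold with adjusted p-values of 1.48e-48, 8.91e-25 and 5.59e-23.

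Of the 15 MHC class II genes tested, 5 were lower and 6 higher in NrESC, near the shares of 39.8% and 39.1% over all genes. The median log2 fold change was -0.05 over all 15 and 0.054 without H2-Aa and Ctss, which had groups at 0 counts. Ciita, the master activator of class II transcription, averaged 0.574 ± 0.371 CPM in NrESC and 1.39 ± 0.568 CPM in ESC, a log2 fold change of -1.35 (SE 0.11, edgeR adjusted p = 8.01e-15, and 0.000724 with passage as the unit). It was 1.44 CPM in NrESC and 1.39 CPM in ESC at passage 0, and 0.483 CPM in NrESC and 1.83 CPM in ESC at passage 14. H2-Ab1, the beta chain of the other class II molecule, averaged 1.09 ± 0.455 CPM in NrESC and 2.26 ± 1.23 CPM in ESC, a log2 fold change of -0.98 (SE 0.083, edgeR adjusted p = 4.34e-14). It was lower in NrESC at 7 of 8 passages, with 1.49 CPM in NrESC and 1.06 CPM in ESC at passage 10. Its partner H2-Aa had 27 counts in all in NrESC and 70 in ESC, and H2-Ob had 0 in every library. So did H2-Ea-ps, the entry for the alpha chain partner of H2-Eb1, whose symbol marks it as a pseudogene. Cd74, the invariant chain that escorts class II molecules, went the other way, at 7.51 ± 1.11 CPM in NrESC and 5.14 ± 1.09 CPM in ESC (log2 fold change 0.56, SE 0.042, edgeR adjusted p = 6.22e-16). Nfyc, a subunit of NF-Y, had a log2 fold change of -0.56 (SE 0.015, edgeR adjusted p = 5.9e-31), at 56.8 ± 11.6 CPM in NrESC and 82 ± 9.37 CPM in ESC. The other subunits, outside the rule for naming genes, were at 0.06 for Nfya (SE 0.013, edgeR adjusted p = 3.56e-05) and -0.05 for Nfyb (SE 0.013, edgeR adjusted p = 0.000995).

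**Figure D4:**
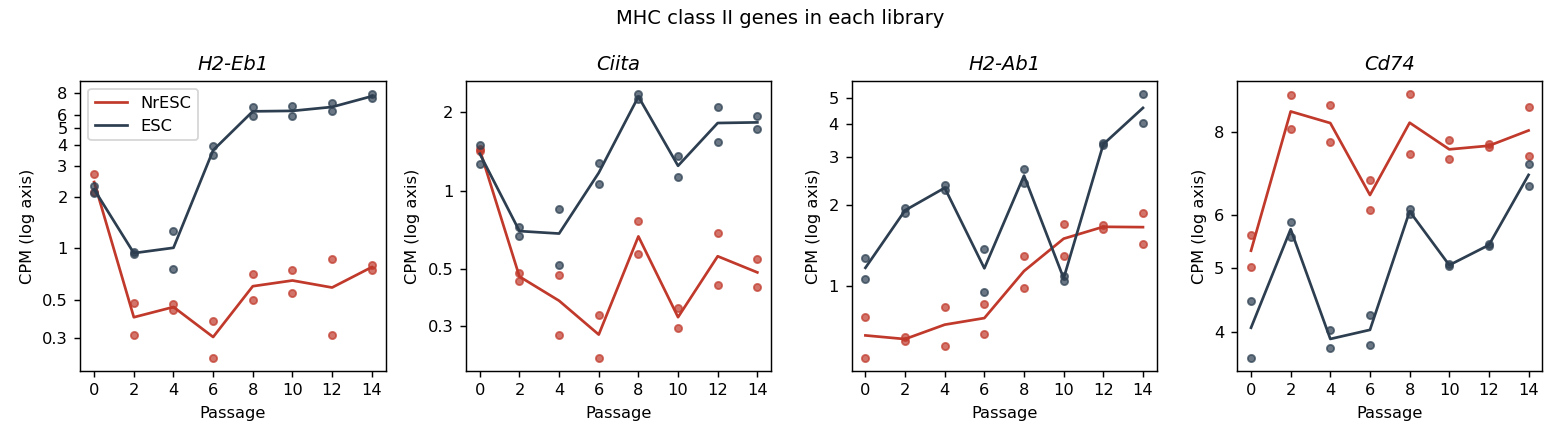
Levels of H2-Eb1, Ciita, H2-Ab1 and Cd74 (CPM, log axis) against passage, with 2 libraries per arm and passage as points and their means as lines (NrESC in red, ESC in dark blue). Ciita and H2-Eb1 start at like levels in both arms and are lower in NrESC afterwards, and the lines of H2-Ab1 cross at passage 10.

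Class I and interferon gamma genes leaned upward, with 13 of 22 higher and 4 lower in NrESC and a median log2 fold change of 0.128. The class I heavy chain H2-K1 was at 1.08 (SE 0.018), the peptide-loading protein Tapbp at 0.71 (SE 0.015) and the proteasome activator subunit Psme2 at 0.46 (SE 0.019), with edgeR adjusted p-values of 1.77e-38, 8.21e-35 and 1.76e-24. With passage as the unit 12 were higher and 2 lower.

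For the smoothelin and smooth muscle list, 9 of 20 tested genes were higher and 6 lower, with a median log2 fold change of 0.048. Smtn, the founding smoothelin, averaged 43.7 ± 3.76 CPM in NrESC and 37.4 ± 2.26 CPM in ESC, a log2 fold change of 0.22 (SE 0.018, edgeR adjusted p = 8.89e-15). Smtnl2 averaged 127 ± 9.38 CPM in NrESC and 124 ± 7.74 CPM in ESC, a log2 fold change of 0.03 (SE 0.011) whose edgeR adjusted p was 0.0144 with libraries and 0.537 with passages as the unit. The intermediate filament gene Des was at 1.01 (SE 0.023), the tropomyosin gene Tpm2 at 0.64 (SE 0.03) and the myosin light chain gene Myl6 at 0.22 (SE 0.012), all higher in NrESC at 8 of 8 passages.

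Of the myelin genes 9 were tested, 4 higher and 5 lower in NrESC, with a median log2 fold change of -0.198. Myrf, a transcription factor of oligodendrocytes, was at 0.74 (SE 0.04) and Mal, a membrane protein, at -1.18 (SE 0.12). Mbp, the myelin basic protein gene, averaged 2.45 ± 1.15 CPM in NrESC and 3.39 ± 1.38 CPM in ESC, a log2 fold change of -0.46 (SE 0.065, edgeR adjusted p = 2.83e-08). The summed level of the 16 myelin genes was 49.7 to 64.3 CPM over the NrESC groups and 44.3 to 53 CPM over the ESC groups. Most of it was Cnp, averaging 32.9 CPM in NrESC and 30.2 CPM in ESC, and Myrf, at 11.4 CPM in NrESC and 6.87 CPM in ESC. Mog, a marker of mature oligodendrocytes, had 30 counts in all in NrESC and 40 in ESC.

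Cofactors of KRAB zinc finger repressors were listed with 8 zinc finger genes and set beside Zfp951, whose own domains were not examined here. Of 24 tested 19 were lower and 1 higher in NrESC, with a median log2 fold change of -0.158, and 17 were lower and 0 higher with passage as the unit. Split by kind after the values were seen, 15 of the 16 cofactors were lower and 0 higher, and of the 8 zinc finger genes 4 were lower, Zfp57 was higher and 3 did not pass the threshold. The chromatin remodeller Atrx averaged 280 ± 30.9 CPM in NrESC and 402 ± 42.5 CPM in ESC, a log2 fold change of -0.52 (SE 0.0095, edgeR adjusted p = 1.74e-37). Resf1, a repressor of endogenous retroviruses, was at -0.47 (SE 0.012) and the remodeller Smarcad1 at -0.42 (SE 0.0092), both lower in NrESC at 8 of 8 passages. These 3 differences are small beside those of Zfp951, whose value in the same mean was -2.29. At passage 14 alone, with 2 libraries per arm, 7 of the 24 were lower and 3 higher by edgeR. Their median log2 fold change there was -0.033, against -0.00353 over all genes, while Zfp951 was at 8.21% of ESC. The share of all genes past the threshold at passage 14 was not counted.

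**Figure D5:**
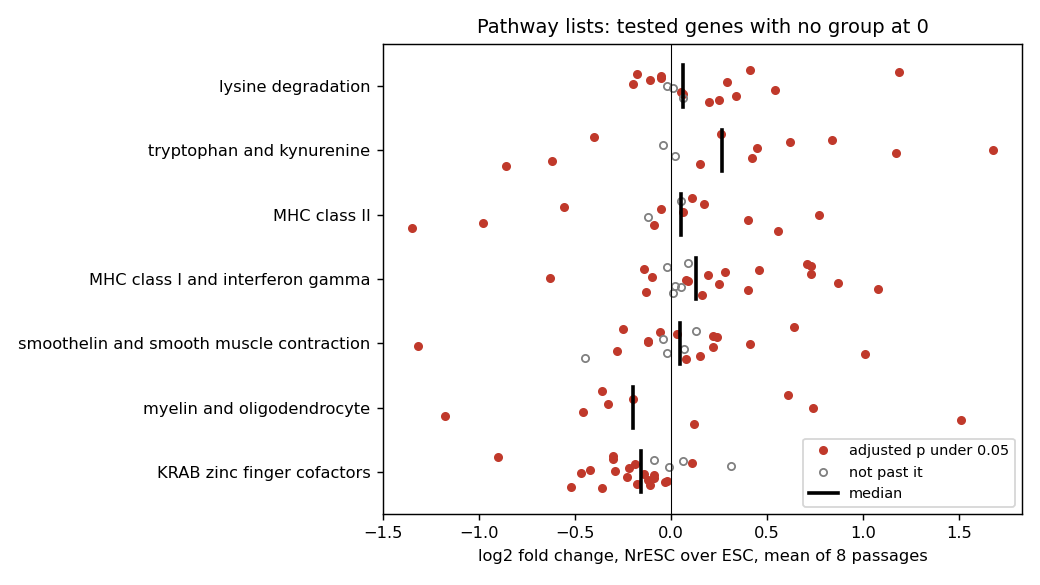
Log2 fold change, NrESC over ESC, in the mean of 8 passages for each tested gene of the 7 lists with no group at 0 counts. Filled red points passed the edgeR threshold of 0.05, open grey points did not, and black bars are medians, which lie between -0.198 for the myelin genes and 0.264 for the tryptophan genes.

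The genes beside the 6 on their chromosomes (6, 5, 17, 8, 2 and 9 for Aass, Zfp951, H2-Eb1, Ido2, Smtnl1 and Mobp in RefSeq's order) were taken as the nearest 2 on each side. Of these 24 neighbours 16 were tested in the mean of 8 passages, and 12 were lower and 1 higher in NrESC by edgeR, against 39.8% and 39.1% of all tested genes. Ube2l6, next to Smtnl1, had 1.64 ± 0.805 CPM in NrESC and 5.41 ± 2.26 CPM in ESC, a log2 fold change of -1.71 (SE 0.067, edgeR adjusted p = 2.84e-25), lower at 8 of 8 passages. On its other side Timm10 was at -0.04 (SE 0.023, edgeR adjusted p = 0.0968). Zmat4, 2 genes from Ido2, was at -1.70 (SE 0.092, edgeR adjusted p = 1.95e-20), with 0.801 ± 0.517 CPM in NrESC and 2.21 ± 0.682 CPM in ESC. Myrip, beside Mobp, was at -1.84 (SE 0.23, edgeR adjusted p = 2.02e-09), on 73 counts in all in NrESC and 185 in ESC, whereas Eif1b, the next gene on that side, was at -0.04 (SE 0.028, edgeR adjusted p = 0.245). Beside Aass, Ptprz1 was at -0.82 (SE 0.083) and Fam3c at -0.06 (SE 0.017), with edgeR adjusted p-values of 7.25e-12 and 0.00159. Beside Zfp951, Abcg3 was at -1.46 (SE 0.31) on 62 counts in all in NrESC and 181 in ESC, and Zfp33b at -0.16 (SE 0.021), with edgeR adjusted p-values of 6.13e-05 and 6.63e-09.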

How the data were processed

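Polyadenylated RNA was measured in 32 libraries of 2 arms and 8 passages. Expected counts for each gene symbol were deposited by the authors, from RSEM per the file headers; they were not normalized, 0.837% of them were fractional, and all were rounded here. A second deposited table gave TPM, which the authors had adjusted for length, with the same sum in every library. The submitters' processing notes list STAR, Cufflinks 2.2.1, HTSeq 0.12.4, DESeq2, edgeR, RSEM and the mm9 build, with no role for each. RSEM divides reads among near-identical genes, and the strand setting was not given in the sources used here. All value columns matched a sample, and 0 columns were left out.

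Libraries held 24989651 to 50463483 counts, and these set the precision of low genes. A mean per arm and passage was fitted with edgeR 4.0.16 in R 4.3.3 (TMM factors 0.979 to 1.03, filterByExpr, quasi-likelihood with 16 residual degrees of freedom), and p-values were adjusted by Benjamini-Hochberg over all 15036 genes with a threshold of 0.05. Contrasts were the mean of 8 passages, each passage, and the difference of slopes over passage number. Correlations used log2 CPM with a prior count of 2, and TPM were logged after adding 0.1. SEs were the fold change divided by the root of F. The scripts were tested on simulated data. Promoter windows came from RefSeq, build GRCm38.p6, and no coordinate was carried to it from mm9.

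The 6 genes, the 7 pathway lists, the 3 marker lists and the contrasts were chosen with earlier results of these data known. The genes named were the 6, 3 members per list (those of smallest p), paralogs and partners of the 6, the 3 genes most alike to each in course, placeholder symbols passed over, and 2 chromosome neighbours on each side. Not every gene that this rule names is reported here. Alternatives were other size factors, no filter, DESeq2 1.42.0, TPM, passage as the unit, a replicate block, omission of passage 0, passage 8 or each library, and 2 other definitions of loss.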

Additional observations from a re-analysis of the deposited data

Results flagged for a closer look

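Besides the 6 genes, 41 named genes had a test of whether their slope over passage number differed between the arms (NrESC minus ESC, log2 per passage), and 19 passed the edgeR threshold, as did 14.2% of all tested genes in the lower and 11.3% in the higher direction. Below 0 were Ciita at -0.135, Ube2l6 at -0.119, Serping1 at -0.067, Mbp at -0.04, Slc43a1 at -0.031, Atrx at -0.026, Eif1b at -0.022, Psme2 at -0.016, Smtn at -0.014, and Smarcad1 and Rpsa at -0.005 each. Above 0 were Slc7a5 and Wars at 0.009 each, Echs1 at 0.011, H2-K1 at 0.012, Tiparp at 0.013, Myrf at 0.048, Zmat4 at 0.073 and Myrip at 0.158. With passage as the unit 0 of the 19 passed. That slope test called only 2 of all 15036 genes lower (0.0133%) and 0 higher, so nothing is read about these genes from it. Ciita had 1.44 CPM in NrESC and 1.39 CPM in ESC at passage 0, against 0.483 CPM in NrESC and 1.83 CPM in ESC at passage 14.

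Ido2 was higher in NrESC than in ESC at passage 0, with a log2 fold change of 0.21 and no overlap of the libraries. Its mean was lower in NrESC from passage 2 on, but at passage 4 the libraries overlapped (log2 fold change -0.34, SE 0.22). That change of direction was not tested, since Ido2 was chosen on these values.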

How the results depend on the processing

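Of the values recomputed for the comparisons, 582 kept their direction and stayed near their value and 21 moved. Of those for single genes at single passages or in single lists, 1461 stayed near their value, 134 moved and 1 turned. Most values in both tallies came from leaving out 1 library, which keeps nearly all of the data. Counts of genes could differ by a margin and still count as near. Cases with no passage of loss were left out of the tally: Smtnl1 and Mobp against NrESC at passage 0, and Mobp at under 25% of ESC. A change of sign counted as turned only where the main value exceeded the SD between replicates. The value counted as turned was Ido2 at passage 4, at 0.09 without replicate 1 of ESC and -0.7 without replicate 2. Smaller values changed sign as well. Leaving out 1 library at a time, the log2 fold change at passage 0 ran from -0.27 to 0.05 for Aass and from -0.05 to 0.29 for H2-Eb1. Without passage 8 the mean log2 fold change of Zfp951 was -2.08. Without passage 0 the means were -3.61 for Aass, -2.59 for Zfp951, -2.77 for H2-Eb1, -1.66 for Ido2 and -2.43 for Smtnl1. On log2(TPM + 0.1) the mean log2 fold change of Aass was -2.71. With group means of TPM, not logged, the passage of loss of Mobp was 12. Counted against NrESC at passage 0, the passage of loss was 2 for Zfp951 and Ido2, and Smtnl1 and Mobp had none. At under 25% of ESC it was 4 for Aass, 6 for Zfp951, H2-Eb1 and Smtnl1 and 8 for Ido2, and Mobp had none. Leaving out 1 library at a time, it ran from 2 to 6 for H2-Eb1 and from 0 to 12 for Mobp. The slope differences past the threshold in the 7 lists, 20 lower and 18 higher, were 0 and 0 with passage as the unit. Over all 15036 genes that test called only 2 lower and 0 higher, so nothing is read from these counts.

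Replicate numbers showed no sign of pairing the samples: over 120 pairs of groups the differences between replicates correlated between -0.09 and 0.1. Those differences include counting noise, which pulls such correlations toward 0, so the check cannot show that pairing was absent. With the replicate block the mean for Aass was -3.17, and 48 genes of the 7 lists were lower and 50 higher, against 47 and 50 without it. Depth limits the low values: single NrESC libraries held as few as 6 counts of Aass, 7 of H2-Eb1 and 8 of Mobp.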
